A study of Homo sapiens with 10 samples.

Results

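Integrins and laminins are described here through 37 protein-coding genes, of 58735 genes in the deposited tables, chosen by symbols that name an integrin or a laminin chain. They comprised 18 integrin α chains, 8 integrin β chains, 5 laminin α chains, 4 laminin β chains and 2 laminin γ chains. Within these families the rule matched gene names and used no measured value. All 37 had the same name, start and end in GENCODE 29.

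RNA was sequenced from TPC-1, an established line from a human papillary thyroid carcinoma that carries a RET fusion. The OE group (n = 5) was transfected with a vector that overexpresses PTCSC3-AS1, a non-coding RNA named as antisense to PTCSC3, and the EV group (n = 5) with the empty vector. Both groups are therefore transfected cells of 1 line, with no untransfected cells beside them. Replicates 1 to 3 of each group share 1 deposited table and are called the first set; replicates 4 and 5 share another and are called the second set. The series' design text counts 5 pairs but gives nothing that joins them. The sources used here do not state what separates the sets or whether replicates are separate cultures, so the p-values cover only the differences among these libraries, and part of those may be technical.

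Laminins are cross-shaped trimers of 1 α, 1 β and 1 γ chain that form the sheet of the basement membrane on which epithelial cells sit. Integrins are paired α and β chains in the cell membrane; the α chain largely sets what is bound, and the β chain links to the actin skeleton or to keratin filaments. ITGB1 pairs with most α chains, while ITGB2 and ITGB7 are known from leukocytes and ITGA2B from platelets. Thyroid follicular cells rest on a basement membrane, and the laminin that holds LAMA3 and LAMB3 is best known from the anchorage of epithelium.

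The libraries held 15761474 to 18066559 counts. The overexpressed transcript was not listed in the tables, so the overexpression itself could not be checked. Of 8 thyroid markers, 5 stayed under 1 TPM in every library, and NKX2-1, TSHR and SLC5A5 were at 0; PAX8, FOXE1 and HHEX carried the list's sum of 231 to 279 TPM in OE and 185 to 254 TPM in EV. TPM is a count divided by the gene's length and scaled to the same total in each library, so levels of different genes can be compared on it. Of 6 epithelial markers, KRT19, EPCAM and CDH1 stayed under 1 TPM. KRT7 ranged from 1.185 to 6.63 TPM, KRT8 from 43.0 to 84.5 TPM and KRT18 from 250 to 329 TPM. Of 7 fibroblast markers, 4 stayed under 1 TPM, and the list summed to 3.68 to 4.61 TPM in OE and 3.33 to 4.32 TPM in EV. Of 5 leukocyte markers, 4 stayed under 1 TPM, with CD3E at 0, and CD14 ranged from 0.536 to 2.47 TPM. All 4 platelet markers and all 5 endothelial markers stayed under 1 TPM. In EV replicate 2, 21 of 27 tested members lay below the mean of the other 5 libraries of the first set, while 47.8% of all genes did. The median deviation of the members was -0.24 (log2), the largest of that set. Members leaned the other way in EV replicate 3 (7 of 27 below, median 0.15) and OE replicate 3 (6 of 27 below, median 0.14). Over 15399 genes, the deviation of EV replicate 2 correlated with log2 gene length at -0.24, against -0.05 to 0.14 in the other first-set libraries. Leaving out EV replicate 2 is therefore given beside the OE counts and the values that this moves most.

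**Figure D1:**
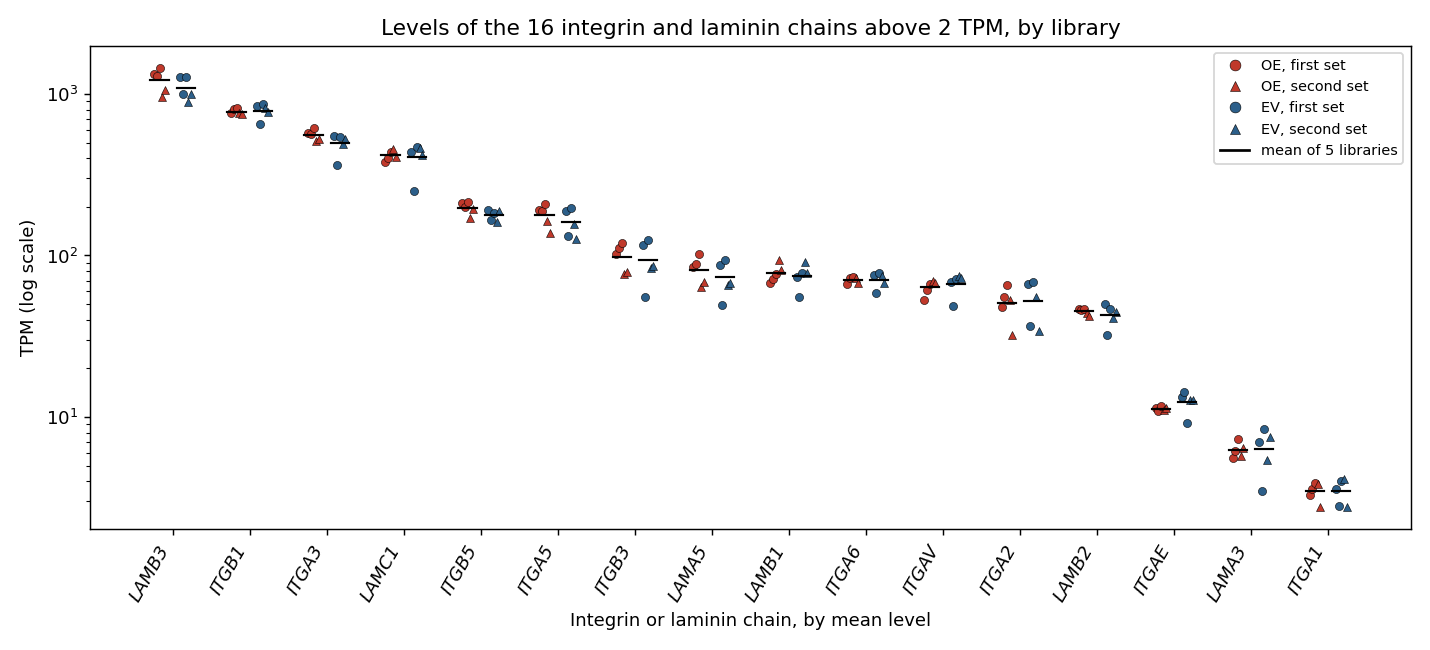
Level of the 16 integrin and laminin chains with a mean of at least 2 TPM (log scale), in 5 OE libraries (red) and 5 EV libraries (blue); circles are the first set, triangles the second set, and bars the mean of 5 libraries. LAMB3 is highest and ITGA1 lowest, and the OE and EV points of each chain overlap.

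These TPC-1 cells carried RNA for a restricted part of both families. Of the 37 chains, 16 had a mean of at least 2 TPM over the 10 libraries: 7 integrin α, 3 integrin β, 2 laminin α, 3 laminin β chains and 1 laminin γ chain. The lowest of them, ITGA1, averaged 3.47 TPM, and the highest of the other 21, ITGB2, averaged 1.61 TPM. Together the 37 genes took 0.670% to 0.816% of all counts in OE libraries and 0.594% to 0.780% in EV libraries. Summed integrin chains came to 2015 ± 134 TPM in OE and 1925 ± 249 TPM in EV, and summed laminin chains to 1843 ± 204 TPM in OE and 1693 ± 244 TPM in EV (SD, n = 5 each). The differences between the group sums were smaller than the SD of the EV libraries.

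The order at the top was the same in all 10 libraries: LAMB3, then ITGB1, ITGA3, LAMC1 and ITGB5. ITGB5 exceeded ITGA5 in 9 of 10 libraries, and ITGB3 followed both in all 10. Below that, neighbours mixed: LAMA5 exceeded LAMB1 in 5 of 10 libraries, LAMB1 exceeded ITGA6 in 7 and ITGA6 exceeded ITGAV in 7. ITGA2 exceeded LAMB2 in 8 of 10 libraries. LAMB2, ITGAE, LAMA3 and ITGA1 then followed in that order in all 10.

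The laminin chains lay at very different levels. Stretches upstream of 4 of their genes are shown first: those of LAMA3 and LAMB3, chains of the same trimer whose levels lay far apart, and those of LAMB1 and LAMC1, partners in other laminins. In the LAMA3 and LAMB3 lines the capitals mark the AP-1 motif TGANTCA, the site known for FOS and JUN factors, and in the LAMB1 and LAMC1 lines the GC box GGGCGG or its reverse complement CCGCCC.
LAMA3, first match, chr18:23872885-23872911, plus strand: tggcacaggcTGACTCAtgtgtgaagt
LAMA3, second match, chr18:23872941-23872967, plus strand: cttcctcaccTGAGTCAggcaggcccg
LAMB3, chr1:209651395-209651624, minus strand: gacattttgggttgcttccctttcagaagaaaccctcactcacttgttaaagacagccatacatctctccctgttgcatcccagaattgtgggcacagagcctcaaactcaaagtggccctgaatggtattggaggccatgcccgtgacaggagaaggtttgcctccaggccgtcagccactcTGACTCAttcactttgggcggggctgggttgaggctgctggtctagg
LAMB1, chr7:108003256-108003411, minus strand: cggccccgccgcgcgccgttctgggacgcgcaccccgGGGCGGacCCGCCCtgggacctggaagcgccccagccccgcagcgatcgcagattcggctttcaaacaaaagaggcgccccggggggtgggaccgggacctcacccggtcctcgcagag
LAMC1, chr1:183023170-183023419, plus strand: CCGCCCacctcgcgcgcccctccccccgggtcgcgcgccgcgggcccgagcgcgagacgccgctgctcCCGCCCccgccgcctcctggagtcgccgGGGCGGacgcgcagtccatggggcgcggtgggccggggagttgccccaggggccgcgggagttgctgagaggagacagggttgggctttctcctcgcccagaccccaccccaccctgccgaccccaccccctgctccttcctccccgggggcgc

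The sequences are from RefSeq (GRCh38.p14), read 5′ to 3′ on the strand of the gene, from windows of 250 bases before an annotated start. In LAMA3 the matches begin at -125 and -69 from the start, inside the gene and within an exon of a GENCODE 29 transcript, so only 10 bases on each side are given. The LAMB3 stretch lies inside the gene, outside exons, upstream of 1 of 3 listed starts, with its match at -67 from that start. The LAMB1 stretch ends where the first GENCODE exon begins; its matches begin at -213 and -205 from the RefSeq start, and another pair at -88 and -84, which overlap each other, lies in that exon. The LAMC1 stretch lies outside GENCODE genes.

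Windows existed for 26 of the 37 members, 33 windows in all. The AP-1 motif was in 2 of these 33, those of LAMA3 and LAMB3, a share near the 6.57% of all 35116 windows of the table. A GC box on either strand was in 17 of 33 windows, belonging to 14 members that include LAMA3, LAMA5, LAMB2 and LAMB3, and in 42.6% of all windows. TATAAA on either strand was in 2 member windows, those of ITGA6 and ITGB1, and in 10.7% of all windows. In lower case above, a GC box also stands once in the LAMB3 stretch. A match of letters is a description and shows no binding.

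LAMB3 (chromosome 1, 209614870 to 209652466, hg38), a laminin β chain of epithelia, was the most abundant member. Its level was 1320.0, 1288, 1449, 955 and 1059.9 TPM in OE libraries 1 to 5, and 1273, 1004.5, 1266, 895 and 995 TPM in EV libraries 1 to 5. Within each set, every OE library of the first set lay above the EV libraries, while those of the second set overlapped EV.

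LAMA3, the α chain that assembles with LAMB3, was far lower. It ranged from 5.56 to 7.31 TPM in OE and from 3.49 to 8.39 TPM in EV. The ratio of LAMB3 to LAMA3 in TPM was 165 to 237 in OE and 131 to 288 in EV. The LAMA3 locus has 10 coding transcripts of 462 to 10661 bases and a deposited length of 14678 bases, so its TPM is an understatement where a short transcript is used. Raw counts, which carry no length, still gave 52.8 to 75.8 LAMB3 counts per LAMA3 count in OE and 42.0 to 91.8 in EV.

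LAMA5, the α chain of laminin-511 and laminin-521, was the higher laminin α chain, 10.6 to 15.4 times LAMA3 in OE and 8.97 to 14.2 times in EV. It measured 85.4, 88.4, 102, 63.5 and 68.2 TPM in OE libraries 1 to 5, and 87.7, 49.45, 94.3, 66.1 and 67.9 TPM in EV libraries 1 to 5. Replicates 4 and 5 of both groups were lower than the first set apart from EV replicate 2, the lowest of all. LAMA5 overlaps ADRM1 on the other strand, and the sources used here do not state whether counting used the strand.

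LAMC1, the γ chain of most laminins, was at 380.4, 401, 438, 456 and 406 TPM in OE libraries 1 to 5, against 436, 251, 466, 464 and 421 TPM in EV libraries. EV replicate 2 was the lowest library of all, and the others of both groups overlapped. LAMB1, its usual β partner, was at 67.7, 71.2, 76.5, 94.1 and 81.0 TPM in OE and 73.85, 55.0, 77.9, 91.0 and 77.5 TPM in EV. Replicate 4 was highest in both groups. LAMC1 stood at 4.85 to 5.72 times LAMB1 in OE and 4.57 to 5.99 times in EV, so the chains kept a similar ratio in all libraries, EV replicate 2 included. LAMB2, which replaces LAMB1 in laminin-521, ranged from 42.0 to 46.8 TPM in OE and from 32.0 to 49.8 TPM in EV.

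ITGB1 (chromosome 10, 32900319 to 33005792), the partner of 12 of the listed α chains, was the leading integrin. It measured 759.9, 803, 819, 759 and 751 TPM in OE libraries 1 to 5, and 841, 649.8, 869, 814 and 770.5 TPM in EV libraries 1 to 5. Apart from EV replicate 2, every EV library lay above every OE library of its set. On counts scaled for library size this order was common. It held for 20.7% of genes in the first set without EV replicate 2 and for 12.5% in the second set. The 12 α chains that pair with ITGB1 summed to 927 ± 76.6 TPM in OE and 850 ± 130 TPM in EV.

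ITGB5, a vitronectin receptor chain that pairs with ITGAV, was at 210.2, 199, 214, 169.6 and 195 TPM in OE libraries 1 to 5, against 192, 165, 183, 161 and 187 TPM in EV libraries. All first-set OE libraries lay above all first-set EV libraries, and the second set overlapped. ITGB3, the other partner of ITGAV in these cells and of ITGA2B in platelets, was at 103, 111, 119, 76.55 and 79.0 TPM in OE and 117, 55.7, 124, 83.2 and 86.6 TPM in EV. Its second-set libraries lay below those of the first set in both groups, except that EV replicate 2 was the lowest of all.

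ITGA3 (chromosome 17, 50055968 to 50090481), the α chain of the main epithelial laminin receptor with ITGB1, was the leading α chain. It stood at 569, 567, 618, 514 and 525 TPM in OE libraries 1 to 5, against 552, 362, 542, 487 and 529 TPM in EV libraries. The first set did not overlap, with OE higher, and in the second set EV replicate 5 was the highest library. ITGA3 was 7.05 to 8.56 times ITGA6 in OE and 6.23 to 7.78 times in EV.

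ITGA6, a laminin receptor chain that pairs with ITGB1 or ITGB4, was even across libraries. Its values were 66.5, 72.6, 73.7, 72.9 and 67.7 TPM in OE libraries 1 to 5, and 76.0, 58.2, 77.6, 74.5 and 68.0 TPM in EV libraries 1 to 5. The groups overlapped. ITGB4, the partner that builds hemidesmosomes, was close to the floor, with 0.252 to 0.528 TPM in OE and 0.0899 to 0.520 TPM in EV, from 3 to 17 counts. Its gene overlaps GALK1, at 299 to 712 counts.

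ITGA5, the fibronectin receptor α chain, was at 192, 188, 208.5, 163 and 139 TPM in OE libraries 1 to 5, against 188, 131, 197, 158 and 127 TPM in EV libraries. Second-set values were lower in both groups, except that EV replicate 2 lay below EV replicate 4. ITGAV, which pairs with several β chains and binds RGD ligands such as vitronectin, was at 52.8, 61.1, 66.6, 69.8 and 67.8 TPM in OE and 68.2, 48.4, 71.1, 74.8 and 72.3 TPM in EV. As with ITGB1, the EV libraries other than replicate 2 lay above the OE libraries of their set, an order with the shares of all genes given there.

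The collagen receptor chains ITGA2 and ITGA1, neighbours on chromosome 5 with 30.1 kb between them, ranged lower. ITGA2 spanned 32.2 to 65.3 TPM in OE and 33.95 to 68.2 TPM in EV, and ITGA1 spanned 2.78 to 3.925 TPM in OE and 2.75 to 4.13 TPM in EV. PELO lies within ITGA1 on the same strand and had 1140 to 1431 counts against at most 370 for ITGA1, so ITGA1 counts may hold reads of PELO. ITGAE, the α chain of the intraepithelial lymphocyte receptor, had 10.9 to 11.6 TPM in OE and 9.15 to 14.2 TPM in EV. It overlaps HASPIN on the other strand, at 279 to 431 counts against at most 467 for ITGAE, and its only partner chain ITGB7 had 0 to 4 counts.

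The other members were low. ITGB2, the β chain of the leukocyte integrins, had 14 to 127 counts per library and is taken up with the sets. ITGA11, LAMA2, ITGB8, ITGA10, ITGAD, ITGAX, ITGAL, ITGAM and LAMA1 stayed under 1.2 TPM in every library. ITGA7, ITGB7, ITGB6, ITGA2B, LAMC3, LAMB4, ITGA9, LAMA4 and ITGA4 had at most 13 counts and were at 0 in some libraries. ITGA8 was at 0 in all 10, which allows up to 0.0898 TPM (3 counts, counting error only). Of the 4 α chains used by leukocytes with ITGB2, each stayed under 1 TPM.

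The main question of the design is what PTCSC3-AS1 overexpression does. No integrin or laminin chain passed the test in OE against EV over both sets, whether receptor or ligand. Of 27 members that passed the filter on low counts, 0 were higher and 0 lower (edgeR quasi-likelihood test with the set as a term, Benjamini-Hochberg adjusted p under 0.05), beside 0% of 15404 genes tested. At an unadjusted p under 0.05 there was 1 member, beside 5.68% of all genes, and DESeq2 and limma-voom called 0 members. A change in the RNA of every cell and a change in the share of cells that express a gene cannot be told apart in bulk RNA.

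Intervals were narrow for the abundant chains. All 16 chains of at least 2 TPM had 95% intervals within 1.5-fold in either direction, with log2 changes of -0.17 to 0.16. Among laminins, LAMB3 changed by 0.14 (log2 OE over EV, SE 0.07, interval -0.0033 to 0.28, adjusted p = 0.853). LAMA5 stood at 0.13 (SE 0.12), LAMB1 at 0.05 (SE 0.08), LAMC1 at 0.03 (SE 0.11) and LAMA3 at -0.04 (SE 0.16). Each of these intervals includes 0. Without EV replicate 2, LAMA5 stood at 0.0190 (SE 0.06), LAMB1 at 0.0056 (SE 0.06), LAMC1 at -0.08 (SE 0.05) and LAMA3 at -0.17 (SE 0.11), and LAMB3 at 0.11 (SE 0.05, interval 0.0011 to 0.23, adjusted p = 0.417, edgeR).

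Among integrins, ITGA3 stood at 0.16 (log2, SE 0.08, interval -0.02 to 0.34) and ITGB5 at 0.13 (SE 0.07, interval -0.02 to 0.28). ITGA5 stood at 0.14 (SE 0.09), ITGB3 at 0.04 (SE 0.14), ITGB1 at -0.03 (SE 0.06), ITGA6 at -0.02 (SE 0.07) and ITGAV at -0.09 (SE 0.08). The member at an unadjusted p of 0.0249 was ITGAD, a leukocyte chain with 0 to 22 counts per library, at 1.68 (SE 0.67, interval 0.24 to 3.12, adjusted p = 0.853). On TMM-scaled CPM, all OE libraries lay above all EV libraries for 0 of 27 members, beside 0.253% of genes, and below them for 0, beside 0.312%. Of 27 members, 15 lay above 0 in the fit, with a median of 0.04 beside -0.0079 over all genes. Without EV replicate 2 the tally turned, with 12 of 26 members above 0 and a median of -0.02, and again no member was called (0% of 15313 genes were). Then LAMB3 and ITGAV had an unadjusted p under 0.05, 2 members beside 11.9% of genes. In that fit ITGA3 stood at 0.09 (SE 0.05), ITGA5 at 0.08 (SE 0.06), ITGB3 at -0.10 (SE 0.06) and ITGAV at -0.14 (SE 0.06, adjusted p = 0.401, edgeR), and ITGAD at 1.37 (SE 0.67, interval -0.06 to 2.80).

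**Figure D2:**
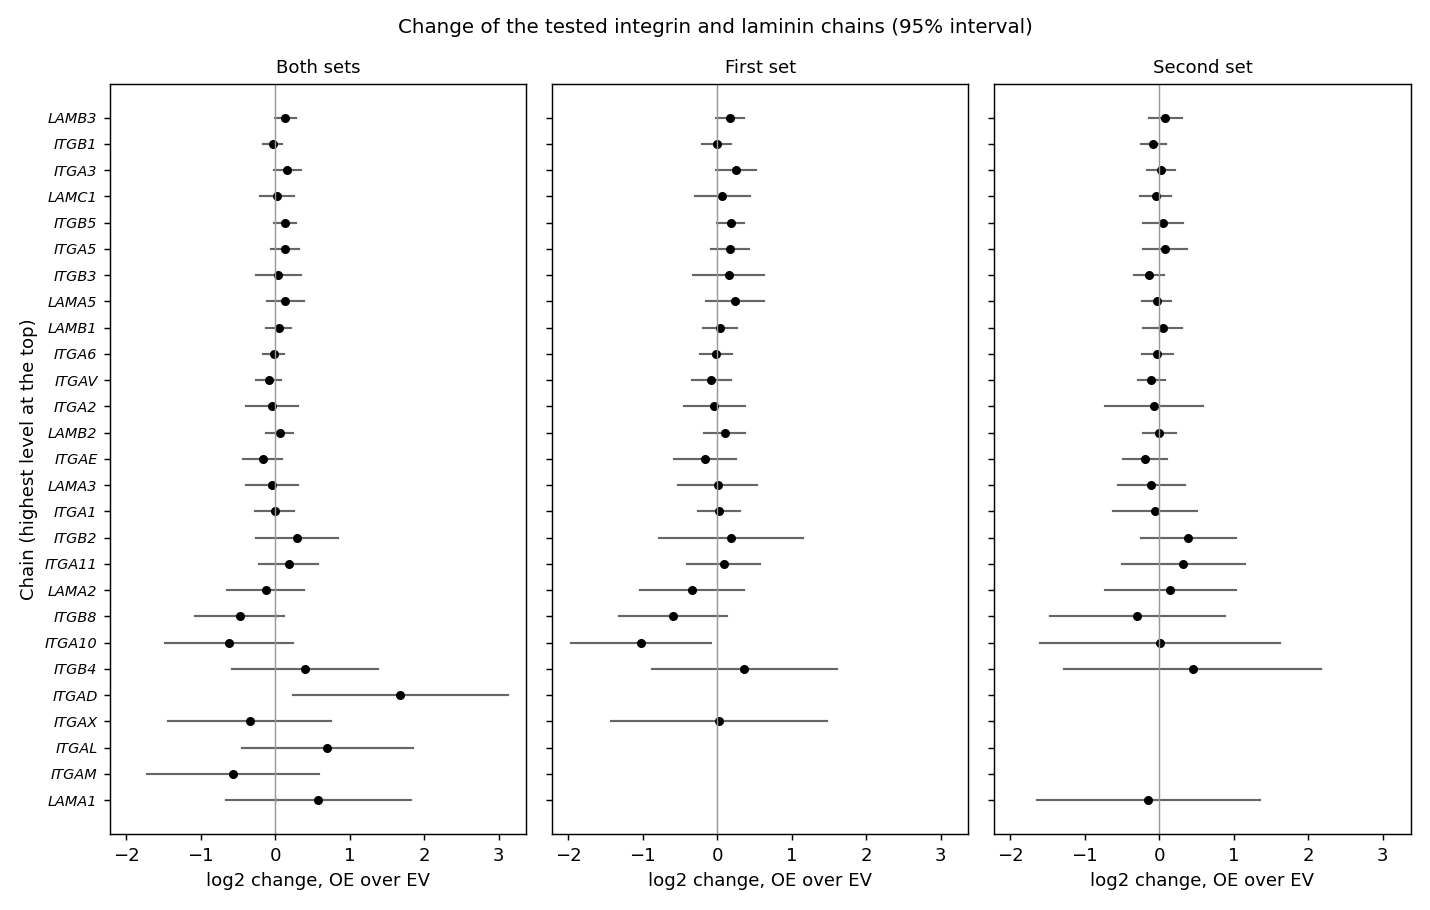
Log2 change, OE over EV, of each tested integrin and laminin chain in both sets together (left), the first set (middle) and the second set (right); points are edgeR estimates, lines their 95% intervals, and chains run from the highest level at the top to the lowest. Intervals are narrow for the upper 16 chains and wide for the low ones, and a missing point means that the chain did not pass the filter on low counts.

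In the first set alone again no member passed the test. Of the 16 chains of at least 2 TPM, 11 lay above 0 there, and 6 did without EV replicate 2. Of 23 tested members 0 were higher and 0 lower (edgeR quasi-likelihood test), beside 0.0349% of 14340 genes called, all lower, and 1 member against 8.84% of genes had an unadjusted p under 0.05. That member was ITGA10, a collagen receptor chain under 1 TPM, at -1.02 (SE 0.42, adjusted p = 0.541). DESeq2 and limma-voom called 0 members. ITGA3 stood at 0.25 (SE 0.12), LAMA5 at 0.24 (SE 0.17), ITGB5 at 0.18 (SE 0.08) and LAMB3 at 0.17 (SE 0.09). With the offsets for GC content and length described with the base composition, these were 0.08, 0.05, 0.10 and 0.05. The chains as a whole did not move towards 0 with the offsets. Of the 16 chains of at least 2 TPM, 14 then lay above 0, with a median of 0.053, against 11 and 0.054 without offsets. Of the 23 tested members 17 lay above 0 with the offsets and 15 without. On the same CPM, 4 members had all OE libraries above all EV libraries (ITGA3, ITGB5, LAMB3 and ITGAD), beside 8.25% of genes, and 2 had them all below (ITGA10 and ITGAM), beside 8.29%.

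The first-set counts rested on EV replicate 2. Without it, 896 genes were higher and 682 lower in OE of the first set (6.07% and 4.62%, together 10.7% of 14769 tested), against 0 and 5 with it. Even so 0 of 26 tested members were called, and 7 members, beside 25.5% of genes, had an unadjusted p under 0.05. The lowest adjusted p of a member was 0.0503, for ITGB5 at 0.19 (SE 0.06, edgeR). ITGA2 stood at -0.22 (SE 0.08, adjusted p = 0.0671, edgeR) and LAMA3 at -0.24 (SE 0.11, adjusted p = 0.174, edgeR). LAMA5 stood at 0.05 (SE 0.07), LAMB1 at -0.04 (SE 0.07), ITGB3 at -0.08 (SE 0.07) and LAMC1 at -0.11 (SE 0.06). ITGA3 stood at 0.14 (SE 0.06), LAMB3 at 0.13 (SE 0.06) and ITGAV at -0.17 (SE 0.07), with adjusted p of 0.120, 0.142 and 0.128 (edgeR). The chains ITGA10, ITGA2, ITGA6, ITGAM, ITGAV, ITGB1 and LAMC1 then had all OE libraries below all EV libraries, 7 of 27 members beside 20.7% of genes, and the same 4 as before had them above, beside 20%.

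In the second set no member passed the test either. Of 23 tested members 0 were higher and 0 lower (edgeR quasi-likelihood test), beside 0% of 14419 genes, and 0 members against 1.1% of genes had an unadjusted p under 0.05. DESeq2 and limma-voom called 0 members too. With the replicate number as a block, 47 of the 14419 genes were higher and 24 lower, and 0 members were called. In that fit 1 of 23 members, beside 7.01% of genes, had an unadjusted p under 0.05. LAMB3 stood at 0.08 (SE 0.09), ITGA3 at 0.02 (SE 0.08) and ITGB5 at 0.05 (SE 0.11), while LAMA5 stood at -0.03 (SE 0.08) and ITGB3 at -0.14 (SE 0.08). ITGB2 had all OE libraries above all EV libraries, 1 of 27 members beside 13.1% of genes. ITGAE, ITGAV, ITGAX, ITGB1 and ITGB3 had them all below, 5 of 27 beside 12.5%. The authors' deposited table gives ITGB2 a log2 fold change of 0.71 for replicate 4 and 0.03 for replicate 5, with an adjusted p of 1 in each.

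The change over EV was also set against itself between the sets. No member differed (interaction term in edgeR, 0 of 27 members called, beside 0.00649% of 15404 genes), and 0 members, beside 3.62% of genes, had an unadjusted p under 0.05. DESeq2 and limma-voom called 0 members. For ITGA3 the second-set change minus the first-set change was -0.23 (SE 0.17), and for LAMA5 it was -0.28 (SE 0.24). Of the 27 members 19 lay below 0, that is, with a lower change in the second set, with a median of -0.08 beside 0.0053 over all genes. With EV replicate 2 left out, 13 of 26 lay below 0, ITGA3 stood at -0.13 (SE 0.10) and LAMA5 at -0.10 (SE 0.11). In that fit 0 members were called, beside 0.0522% of genes (0.0457% higher and 0.00653% lower), and no member (0 of 26) reached an unadjusted p of 0.05, which 8.74% of genes did.

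**Figure D3:**
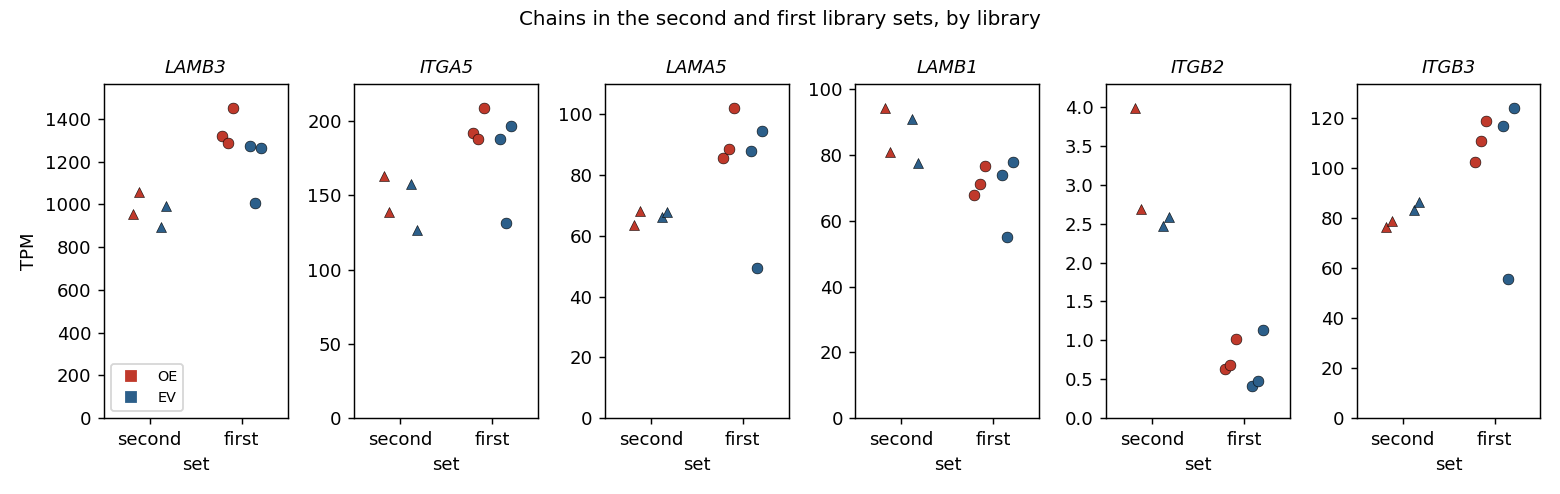
TPM of 6 chains in each library of the second set (triangles) and the first set (circles), OE in red and EV in blue, each axis starting at 0. ITGB2 and LAMB1 average higher in the second set and LAMB3, ITGA5, LAMA5 and ITGB3 lower. EV replicate 2 lies below the other first-set libraries in all but ITGB2.

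The members differed more between the sets than between OE and EV. In the second set against the first, 2 of 27 members were higher (ITGB2 and LAMB1), beside 8.31% of 15404 genes, and 3 were lower (LAMB3, ITGA5 and LAMA5), beside 8.76% (edgeR with the group as a term). Culture and sequencing run cannot be told apart from the set. The shares are near those of all genes. On TMM-scaled CPM the sets did not overlap for ITGB2 and LAMB1, higher in the second set (2 of 27 members, beside 8.04% of genes), and for LAMB3, lower there (1 of 27, beside 7.76%). Of 27 members 21 lay below 0, with a median of -0.11 beside -0.0070 over all genes, and 10 members against 31.4% of genes had an unadjusted p under 0.05.

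ITGB2 (chromosome 21, 44885953 to 44931989), the β chain of leukocyte integrins, was 3.90-fold higher in the second set. Its TMM-scaled CPM was 7.52 and 5.05 in OE and 4.61 and 4.97 in EV of the second set, against 1.25, 1.33 and 1.93 in OE and 0.793, 1.03 and 2.14 in EV of the first set. The sets did not overlap, and the log2 change was 1.96 (SE 0.25, interval 1.43 to 2.50, adjusted p = 2.32e-04, edgeR). Its antisense partner ITGB2-AS1 had 4 to 31 counts per library, and without knowledge of the strand used in counting the genes cannot be separated. The leukocyte markers summed to 0.914 to 2.47 TPM in OE and 0.536 to 2.57 TPM in EV, with CD14 at 0.536 to 2.47 TPM and PTPRC at no more than 0.0636 TPM.

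LAMB3 was lower in the second set, at 0.746 times the first-set level. It had 1245 and 1373 CPM in OE and 1153 and 1320 CPM in EV of the second set, against 1814, 1726 and 1893 CPM in OE and 1671, 1492 and 1649 CPM in EV of the first set. On this scale no library of one set reached the other, and the log2 change was -0.42 (SE 0.07, adjusted p = 0.00105, edgeR). LAMB1, the β chain of laminin-111 and laminin-511, moved the other way, with 213 and 182 CPM in OE and 203 and 179 CPM in EV of the second set, against 162, 166 and 174 CPM in OE and 168, 142 and 176 CPM in EV of the first set. It rose by 0.24 (log2, SE 0.08, adjusted p = 0.0472, edgeR), and was called in 4 of the 10 fits that leave out 1 library, those without EV replicate 2, 3 or 5 or OE replicate 5, with adjusted p of 0.0215 to 0.155 over the 10. LAMB3 and ITGB2 were called in all 10. The ratio of LAMB3 to LAMB1 in TPM accordingly ran from 10.1 to 19.5 in OE and from 9.84 to 18.3 in EV. In TPM the sets overlapped for both genes. LAMB3 was at 1004.5 TPM in EV replicate 2 of the first set and at 1059.9 TPM in OE replicate 5 of the second. LAMB1 was at 77.9 TPM in EV replicate 3 of the first set and at 77.5 TPM in EV replicate 5 of the second. It overlaps DLD on the other strand, at 714 to 893 counts against at most 3596 for LAMB1. The strand used in counting is not known, so LAMB1 counts may hold reads of DLD.

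ITGA5 fell by 0.37 (log2, SE 0.09, adjusted p = 0.0118, edgeR) in the second set, with 343 and 291 CPM in OE and 328 and 272 CPM in EV there. The first-set libraries had 426, 407 and 440.1 CPM in OE and 399, 315 and 414.5 CPM in EV. LAMA5 fell by 0.38 (SE 0.12, adjusted p = 0.0407, edgeR), with 252 and 269 CPM in OE and 259 and 274 CPM in EV of the second set, against 358, 361 and 405 CPM in OE and 351, 224 and 374 CPM in EV of the first set. ITGA5 was called in 9 of the 10 fits that leave out 1 library (adjusted p = 0.0534 without OE replicate 5, edgeR). LAMA5 was called in 1 of them, without EV replicate 2 (adjusted p = 2.57e-05, edgeR), and its adjusted p was 0.0513 to 0.137 in the others and 0.0521 with limma-voom. EV replicate 2 lay within the range of the second set for ITGA5 and below every second-set library for LAMA5. Every other first-set library lay above the second set for both genes.

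ITGB3 stood at -0.40 (SE 0.14, adjusted p = 0.0688, edgeR) and ITGA2 at -0.42 (SE 0.17, adjusted p = 0.101), and neither passed the test. Without EV replicate 2, 6 members were lower (LAMB3, ITGA5, LAMA5, ITGB3, ITGA2 and ITGA3), beside 12.4% of genes, and the same pair was higher, beside 12.7%. In OE libraries alone ITGB2 was higher and LAMB3, ITGA5, LAMA5 and ITGB3 lower, beside 6% and 6.73% of genes. In EV libraries alone 0 members were called, beside 0.414% of genes, and 4 members, beside 15.8% of genes, had an unadjusted p under 0.05. There LAMB3 stood at -0.36 (SE 0.13) and ITGB2 at 1.87 (SE 0.41). With the offset for GC content and length added after seeing the data, 3 members were higher, beside 8.62% of genes, and 6 lower, beside 8.65%.

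Within the second set some chains differed by replicate number in both groups. ITGA2 was at 53.1 TPM in OE replicate 4 and 32.2 in OE replicate 5, and at 55.4 TPM in EV replicate 4 and 33.95 in EV replicate 5. ITGA1 was at 3.87 and 2.78 TPM in OE replicates 4 and 5, and at 4.13 and 2.75 TPM in EV replicates 4 and 5. Both chains were lower in replicate 5 by more than 0.3 on the log2 scale in both groups, 2 of 27 members beside 5.96% of genes, and this difference was not tested. ITGA2 and ITGA1 are the collagen receptor chains that neighbour each other on chromosome 5.

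**Figure D4:**
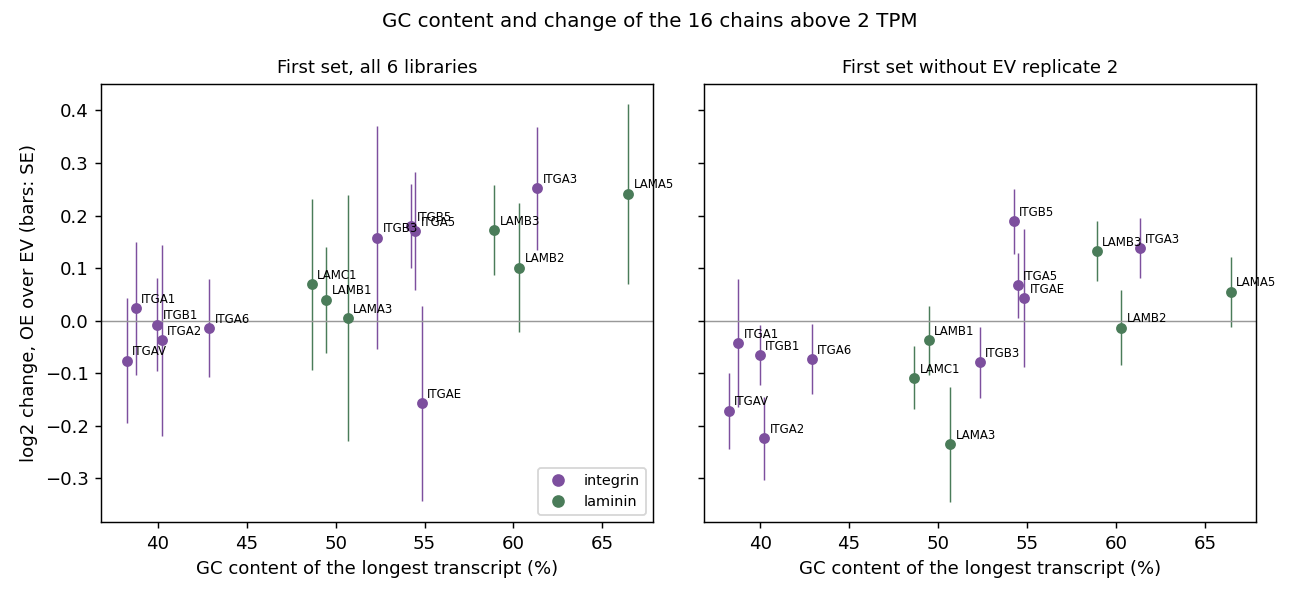
Log2 change, OE over EV, of the 16 chains of at least 2 TPM in the first set (left) and without EV replicate 2 (right), against the GC content in percent of each gene's longest transcript; bars are the SE, integrins purple and laminins green. The chains ITGAV, ITGB1 and ITGA2, of low GC content, lie below 0 and ITGA3, LAMB3 and LAMA5, of high GC content, above 0.

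The small OE changes of the first set ran with base composition in part. Across the 16 chains of at least 2 TPM, the first-set change correlated with GC content at r = 0.69, and over 14335 genes at r = 0.33. These correlations are across genes of the same 6 libraries. Without EV replicate 2 the values were 0.65 and 0.29, and in the second set 0.35 and 0.09. Over all tested members, low ones included, r was 0.42 in the first set (23 members). It was 0.31 without EV replicate 2 (26 members) and 0.47 in the second set (23 members). ITGA3 (61.3% GC), LAMB3 (58.9%) and LAMA5 (66.4%) had first-set changes above 0, and ITGAV (38.3%), ITGB1 (40.0%) and ITGA2 (40.2%) had changes below 0, with ITGB1 at -0.0080. ITGA1 (38.8%) at 0.02 and ITGAE (54.9%) at -0.16 ran the other way. With an offset for GC content and length, an option added once the data had been seen, the first-set change of ITGB1 was 0.0858 and that of ITGAV 0.0217, and over both sets that of LAMA5 was -5.7e-04. With the offset 14 of the 16 chains lay above 0 in the first set, against 11 without it. The offsets were fitted per library without regard to group, so they also take out any OE difference that runs with GC content. The deviation of each first-set library correlated with GC content at -0.13, -0.07 and -0.21 in EV and 0.28, 0.04 and 0.16 in OE. GC content and group therefore cannot be told apart there, and the part of GC content in the changes was not tested.

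The intracellular partners of integrins were abundant and showed no call over both sets. FLNA, which crosslinks actin and binds β tails, averaged 1204 TPM, ACTN4 415 TPM, TLN1 (talin, which activates integrins) 301 TPM and ZYX 260.0 TPM. Of 32 tested genes of the adhesion complex 0 were higher and 0 lower in OE against EV, and 28 lay above 0, with a median of 0.08 beside -0.0079 over all genes. In the first set without EV replicate 2, 18 of 32 lay above 0 with a median of 0.02, and in the second set 20 of 31 with a median of 0.03. The kinase SRC stood at 0.24 (log2, SE 0.09, adjusted p = 0.853, edgeR). Without EV replicate 2, in the first set, SRC rose by 0.27 (SE 0.07), SHARPIN, an inhibitor of integrin activation, rose by 0.27 (SE 0.07) and FLNC fell by 0.24 (SE 0.07), 3 of 32 genes, beside 10.7% of all genes called in that fit.

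Lateral partners, the tetraspanins, syndecans and other laminin receptors that sit beside integrins, gave 0 calls of 18 tested over both sets. CD82, a tetraspanin, stood at 0.30 (SE 0.09, unadjusted p = 0.0071 and adjusted p = 0.853, edgeR). In the first set without EV replicate 2, 6 of 18 rose and 0 fell, beside 6.07% of genes higher: CD82 by 0.42 (SE 0.08), CD63 by 0.29, CD151, the tetraspanin that binds ITGA3, by 0.27 (SE 0.07), SDC1 by 0.24, TSPAN4 by 0.22 and BSG by 0.20. With EV replicate 2 in the fit, 0 of these 18 were called. RPSA, at 1447 TPM, CD44, at 586 TPM, BSG, at 524 TPM, and SDC4, at 483 TPM, were the most abundant of the list.

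Other basement membrane and hemidesmosome genes gave 0 calls of 16 tested over both sets, led in level by SPARC (512 TPM), PLEC (509 TPM), AGRN (298 TPM) and NID1 (85.3 TPM). COL4A2, a chain of the collagen network under laminin, stood at 0.27 (SE 0.12) and NTN4, a netrin that binds laminin γ chains, at -0.48 (SE 0.21), each with an adjusted p of 0.853 (edgeR). Without EV replicate 2, in the first set, COL4A2 rose by 0.23 (SE 0.07), NTN4 fell by 0.86 (SE 0.25) and DST, a linker of hemidesmosomes to keratin, fell by 0.50 (SE 0.07), 3 of 15 tested there, beside the same 10.7%. The non-laminin ligands gave 0 calls of 19, with CYR61 at 676 TPM, FN1 (fibronectin, bound by ITGA5) at 616 TPM and SPP1 (osteopontin, bound by ITGAV) at 375 TPM. In the same fit without EV replicate 2, SPP1 rose by 0.22 and COL1A1 by 0.82, and THBS1 fell by 0.37 and FBN2 by 0.29, 4 of 18 tested there, beside the same 10.7%.

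Between the sets the partner lists moved more. In the second set 9 of 32 adhesion complex genes were higher and 0 lower, among them ZYX by 0.44 (log2, SE 0.06) and PARVB by 0.57 (SE 0.08), beside 8.31% and 8.76% of all genes. Of 16 basement membrane genes 5 were higher (COL18A1 by 0.64, COL4A2 by 0.59, COL4A1 by 0.57, SPARC by 0.47 and AGRN by 0.38) and DST was lower. Of 19 ligands 8 were higher and 3 lower: THBS1 (thrombospondin) rose by 1.18 (SE 0.11), while FN1 fell by 0.68 (SE 0.13), SPP1 fell by 0.61 (SE 0.10) and LTBP1 fell by 0.90. Of 18 lateral partners CAV1 and BCAM, a receptor of laminin α5, were higher and CD44 lower.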

How the data were processed

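The deposited tables hold, per the file headers, raw counts of each gene in each library and gene lengths. The authors' second table adds their log2 fold changes with raw and adjusted p-values, OE over EV, for replicates 4 and 5. The submitters' processing notes name hg38, DESeq2 1.20.0, featureCounts 1.5.0-p3, HISAT2 2.0.5, fastp and CASAVA 1.8; roles, annotation release and strand setting are not stated there. The 14 other per-library columns were not used. The gene families, and with them the members, and the partner lists were chosen with earlier results of these data known, although the rule for members reads gene names only. Of the genes that the choice by symbol and the marker lists name, 2 are not reported here; they stayed in the fits over all genes. TPM was computed from counts and lengths. Tests used edgeR 4.0.16 (R 4.3.3): TMM scaling, filterByExpr, quasi-likelihood test, and Benjamini-Hochberg adjustment over all genes tested, with the set as a term over both sets and each set also fitted alone. Alternatives were DESeq2 1.42.0, limma-voom (limma 3.58.1), other filters and scalings, left-out libraries, a replicate block, and offsets for GC content and length. The fit was tested on simulated data. Values by library are given for members called in the main fit of a comparison and the 11 with the highest mean TPM, the rest by range. ITGA2, the next in level, is given by range in the first set, although it was called between the sets without EV replicate 2. From each partner list, the most abundant genes and those with the lowest p are named. At this depth 3 counts, the floor for a count of 0, equal 0.166 to 0.190 CPM, for counting error only.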

Additional observations from a re-analysis of the deposited data

Results flagged for a closer look

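In each group of 5 libraries, the gap of the highest or lowest library to its neighbour was set against the group's range for the members given by library (24 groups, of which chance marks about 1 in 20). LAMC1 was marked for EV replicate 2, at 251 TPM against 421 to 466 TPM in the other EV libraries, a gap of 0.789 of the range. ITGAV was marked for the same library, at 48.4 TPM against 68.2 to 74.8 TPM, a gap of 0.75 of the range. Both exceed the critical share of 0.71.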

How the results depend on the processing

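No member was called in OE against EV under any alternative, and LAMB3 and ITGB2 were called between the sets in all 10 fits that left out 1 library. Gene counts moved more. Without the low-count filter, OE against EV gave 7 higher and 16 lower genes over both sets, 30 and 60 in the first set, 9 and 3 in the second, and 20 and 8 for the difference between sets. DESeq2 gave 2 and 5, 24 and 52, 1 higher in the second set and 9 higher for the difference. The replicate block left 1 lower gene in the first set and gave 47 higher and 24 lower in the second, with 0 members called. Same-numbered libraries correlated at -0.09, 0.0049 and 0.13 in the first set, where OE replicate 1 correlated best with EV replicate 2. In the second set same-numbered libraries correlated at 0.26 and the others at -0.26, which with 2 libraries per group is 1 value. There replicate 5 differed from replicate 4 in the same direction in both groups for 65.0% of genes and 19 of 27 members. The main fits used no pairs because no label says what a number shares. The main second-set fit thus leaves aside what its same-numbered libraries share. A dispersion shared by both sets gave 8 lower genes in the first set. The offsets for GC content and length, added once the data had been seen, gave 3 genes higher for the difference, and 6 members lower between the sets, where leaving out the filter gave 5. Between the sets, EV libraries alone gave 28 higher and 33 lower genes and 0 members, and OE libraries alone 1 member higher. Leaving out 1 library gave 0 to 896 higher and 0 to 682 lower genes in the first set, both maxima without EV replicate 2, 0 to 1 lower in the second set, and 0 to 7 higher and 0 to 1 lower for the difference. Between the sets it gave 635 to 1938 higher and 615 to 1893 lower genes, 1 to 2 members higher and 1 to 6 lower.

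Small changes turned sign; the cause was not tested. The offsets gave ITGB1 0.0369, LAMA5 -5.7e-04 and ITGA6 0.0281 over both sets, ITGB1 0.0858, ITGA6 0.0512 and ITGAV 0.0217 in the first set, ITGA3 -0.00475 in the second, and ITGA6 0.00685 between the sets. No filter gave ITGB1 0.00321 in the first set, and EV libraries alone gave ITGA3 0.0308 between the sets. Leaving out 1 library gave, over both sets, LAMC1 -0.0758 to 0.091, ITGB3 -0.10 to 0.12 and ITGA6 -0.0482 to 0.0096. In the first set it gave ITGB1 -0.0653 to 0.0384, LAMC1 -0.11 to 0.20, ITGB3 -0.0794 to 0.33, LAMB1 -0.0377 to 0.10, ITGA6 -0.0728 to 0.0277 and ITGB2 -0.074 to 0.73. In the second set it gave LAMB3 -0.0112 to 0.18, ITGA3 -0.0564 to 0.10, LAMC1 -0.14 to 0.0382, ITGB5 -0.0701 to 0.18, ITGA5 -0.0553 to 0.22, LAMA5 -0.0832 to 0.011, LAMB1 -0.0709 to 0.16 and ITGA6 -0.089 to 0.0283. Of the other values of single members, 616 kept their direction and side of the threshold or, for levels, their rank. A further 23 no longer passed the threshold and 8 newly passed it, and on CPM in place of TPM 8 members changed rank. Depth limits the low chains: over both sets 17 of 27 tested members had intervals within 1.5-fold and 19 within 2-fold.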
